A study of Rattus norvegicus with 8 samples.

Results

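Expression of 10 enzymes of purine breakdown and salvage was examined in rat kidney: xanthine dehydrogenase/oxidase (Xdh), aldehyde oxidase 1 (Aox1), urate oxidase (Uox), purine nucleoside phosphorylase (Pnp), guanine deaminase (Gda), adenosine deaminase (Ada), the surface 5'-nucleotidase CD73 (Nt5e), hypoxanthine-guanine phosphoribosyltransferase (Hprt1), adenine phosphoribosyltransferase (Aprt) and adenosine kinase (Adk). They were found on the array by the RefSeq transcript accession of each probe. Of the 10 genes, 9 had a probe, each with 1 probe printed as 1 spot, and Pnp was matched to none. The probes of 8 genes passed the detection filter and were tested among 21420 genes or unnamed transcripts. Total RNA came from the kidneys of male SD rats (an outbred laboratory strain) aged 10 weeks. The control group, 4 samples, had received 0.5% methylcellulose, a vehicle, for 4 weeks. The treated group, 4 samples, had received 150 mg/kg of a compound labelled APL for 4 weeks, read here as allopurinol because the series title names that drug as the one that produced the fibrosis model. No genetic change is named in either group. The title speaks of renal tubules and the tissue label of kidney, so the cells sampled are known only as kidney. The vehicle of the APL group is not stated, and neither is whether the 4 samples of a group were 4 animals. What the p-values reflect is thus spread among samples, and this may be technical.

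Purine breakdown ends in the oxidation of hypoxanthine to xanthine and of xanthine to urate, both carried out by the product of Xdh, a molybdenum enzyme. Allopurinol is taken by the same enzyme and, with aldehyde oxidase, turned into oxypurinol, which holds the enzyme inactive, so that hypoxanthine and xanthine build up in place of urate. The salvage enzymes return free bases and adenosine to nucleotides, and rats, unlike humans, break urate down further with urate oxidase, an enzyme of liver peroxisomes. The comparison of treated with control kidneys asks here whether transcripts of the drug's target and of its neighbours in the pathway differed.

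Each sample was hybridised to 1 single-colour array, and with so few arrays precision is limited. Arrays differed in brightness, with a 75th percentile of processed signal that ran from 272 to 307 on control arrays and from 378 to 497 on allopurinol arrays, and signals are therefore given as multiples of it (the relative signal) or as log2 of that ratio. Probes well above background made up 74.0% to 77.3% of the control arrays and 80.0% to 81.9% of the allopurinol arrays. Each of 2 slides carried 2 control and 2 allopurinol arrays, replicates 1 and 2 of either group on slide 1 and replicates 3 and 4 on slide 2. Defining transcripts of kidney were present: all 10 proximal tubule markers were tested, with a summed relative signal of 415 to 518 in control and 42.6 to 53.5 with allopurinol.

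None of the 8 tested enzymes passed the threshold. At an adjusted p under 0.05 (limma with Benjamini-Hochberg adjustment over all genes), 0 of 8 were called higher and 0 lower, where 11.9% of all genes tested were called higher and 11.5% lower, 23.5% in all. At an unadjusted p under 0.05 there were 3, Ada, Nt5e and Adk, all lower with allopurinol, against 37.1% of all genes. The control and allopurinol values did not separate completely for any of the 8, where they did for 29.9% of all genes tested. Of the estimates, 5 were below 0 and 3 above, with a median log2 fold change of -0.48 beside -0.03 over all genes. The 95% intervals, drawn in the plot of the 8 changes, were wide. In whole tissue, fewer cells of a type and less RNA per cell cannot be told apart for any of these values.

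**Figure D1:**
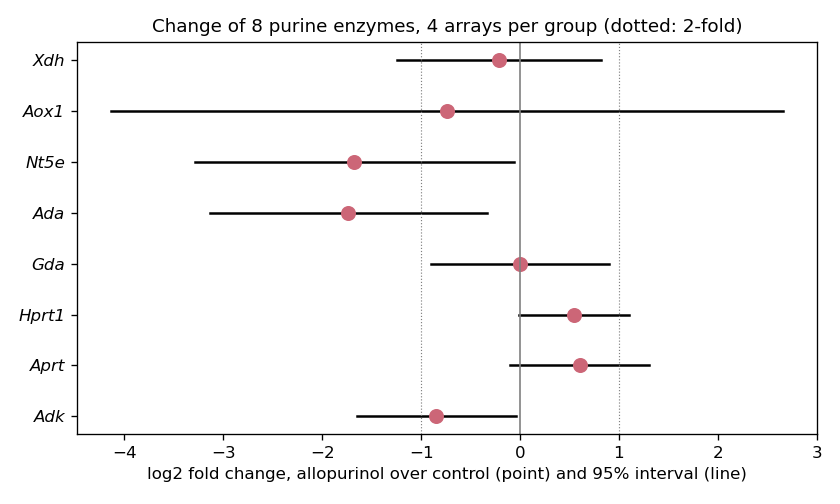
The plot gives the log2 fold change of allopurinol over control (points) for the 8 tested enzymes with 95% intervals from limma (lines, n = 4 per group); dotted lines mark a 2-fold change. The intervals of Ada, Nt5e and Adk lie below 0, that of Ada ending at -0.33, and none of the 8 passed an adjusted p under 0.05.

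The transcript of the drug's target, Xdh, was well above background on all 8 arrays. Its relative signal in control replicates 1 to 4 was 0.540, 0.639, 0.253 and 0.214. In allopurinol replicates 1 to 4 it was 0.534, 0.221, 0.353 and 0.248. The groups overlapped almost completely, and the high control values were those of slide 1. The log2 fold change was -0.21 ± 0.45 (moderated standard error, n = 4 per group; 95% interval -1.25 to 0.82; limma adjusted p = 0.757), so anything from a drop to 0.421 of the control level to a rise of 1.76-fold lies within the interval. On slide 1 the difference was -0.77 and on slide 2 it was 0.35. Control arrays of slide 2 lay 1.34 log2 units below those of slide 1 (a difference of -1.34), and allopurinol arrays differed by -0.22 in the same comparison. The sign of the small Xdh estimate also turned without scaling between arrays (0.42) and without control replicate 2 (0.049). With normexp scaled to the percentile the estimate was 0.12, and with normexp and quantile normalization it was -0.24. The median over all genes was itself 0.61 without scaling and 0.36 with normexp scaled to the percentile, against -0.03 as reported.

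Aldehyde oxidase 1, the other enzyme that can convert allopurinol, was the most scattered member. Its relative signal was 0.0912, 0.0122, 0.404 and 0.0577 in control replicates 1 to 4, with replicate 2 not well above background. With allopurinol it was 0.00953, 0.00815, 0.317 and 0.136, with replicates 1 and 2 not well above background. In both groups the highest array was replicate 3 of slide 2. Arrays of slide 2 lay 2.19 log2 units above those of slide 1 in control and 4.56 above them with allopurinol. The log2 fold change of -0.74 ± 1.47 (interval -4.14 to 2.66, limma adjusted p = 0.746) has the widest interval of the 8. It was -1.92 on slide 1 and 0.44 on slide 2. Its sign also turned with normexp and the 75th percentile (0.72) and without control replicate 3 (0.094) or allopurinol replicate 2 (0.059). The value of 0.72 stood beside a median over all genes of 0.36 in that setting.

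Urate oxidase was not well above background on any of the 8 arrays. Its processed signal lay between 0.954 and 1.35 units, where the lowest probe called well above background on any array had 4.33, so no level and no fold change can be given. Of the 7 hepatocyte markers, Serpina1 was well above background on all 8 arrays, Apoh on 4 control and 1 allopurinol array, and Tdo2 on 1 control and 4 allopurinol arrays. Cps1 was so on 1 array of either group, Apoa1 on 2 allopurinol arrays, and Alb and Tat on none.

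**Figure D2:**
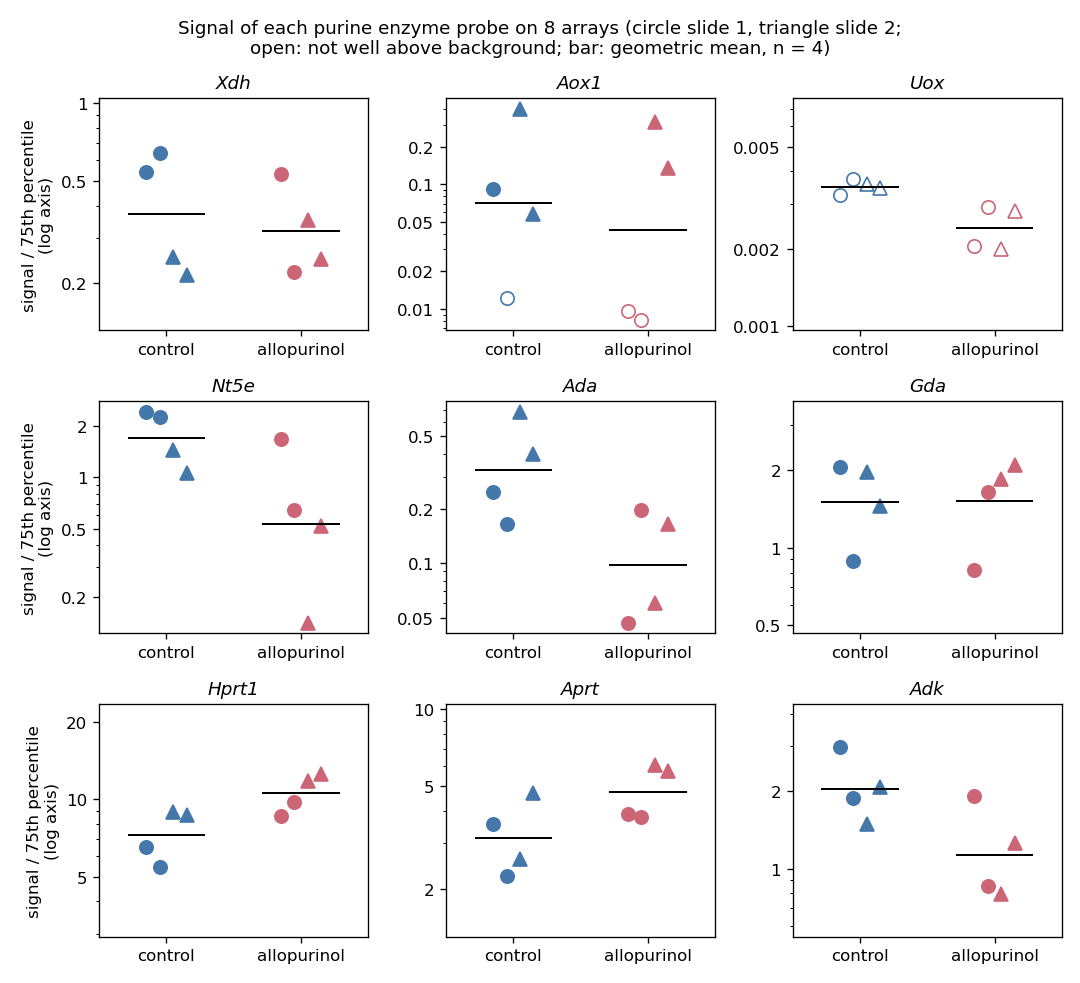
Relative signal (processed signal over the array's 75th percentile, log axis) of the 9 enzymes with a probe on the 4 control and 4 allopurinol arrays; circles are slide 1, triangles slide 2, open symbols are not well above background and bars are geometric means. Groups overlap for all 8 tested enzymes. The Uox points are all open, and their order carries no information on level.

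The upstream region of Xdh is shown because the enzyme is the drug's target, and that of Uox because its transcript was not well above background in these kidneys. Each run holds 250 bases before to 50 bases after the annotated start of the gene, from RefSeq (build GRCr8), 5′ to 3′ on the gene's strand. The window of Xdh is chr6:27282069-27282368 (plus strand) and that of Uox is chr2:238146880-238147179 (plus strand). Capitals mark matches on either strand to 3 motifs. The GC box was searched as GGGCGG. The TATA motif was searched as TATAAA. The remaining motif was CCAAT, and no matches overlap in the windows shown.
Xdh: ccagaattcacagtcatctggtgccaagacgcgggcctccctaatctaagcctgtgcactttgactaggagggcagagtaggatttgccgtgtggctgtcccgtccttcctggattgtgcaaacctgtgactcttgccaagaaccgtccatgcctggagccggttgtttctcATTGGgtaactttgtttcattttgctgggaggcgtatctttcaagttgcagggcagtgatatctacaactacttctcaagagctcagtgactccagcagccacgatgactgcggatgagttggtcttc
Uox: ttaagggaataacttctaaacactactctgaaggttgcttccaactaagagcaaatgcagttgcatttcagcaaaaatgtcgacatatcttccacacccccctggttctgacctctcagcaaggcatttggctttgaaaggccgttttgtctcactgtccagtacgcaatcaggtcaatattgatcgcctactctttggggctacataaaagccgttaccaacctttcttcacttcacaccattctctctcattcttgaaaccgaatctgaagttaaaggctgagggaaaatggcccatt

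Xdh has 1 CCAAT match, on the opposite strand, whose first base lies at -78 from the start, and Uox has no match to the 3 motifs in this window. Their CpG counts are 9 and 6, and the median of 33469 such windows is 7. A match describes letters only, and the expression data do not test any of these motifs.

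Among the enzymes that release bases and nucleosides, Nt5e and Ada had the lowest estimates of the 8. CD73, encoded by Nt5e, makes adenosine from AMP outside the cell. The relative signal of Nt5e was 2.41, 2.24, 1.44 and 1.06 in control replicates 1 to 4 and 1.68, 0.645, 0.141 and 0.520 with allopurinol. Allopurinol replicate 1 lay among the controls, and the other 3 lay below every control array. On the log2 scale Nt5e differed by -1.67 ± 0.70 (interval -3.29 to -0.06, limma adjusted p = 0.123). Both slides gave a negative difference, -1.16 and -2.19. Without allopurinol replicate 1 the value was -2.23 and passed the threshold (limma adjusted p = 0.0414), while without allopurinol replicate 3, and likewise without scaling, it was -1.04. Over all other settings the adjusted p ran from 0.0414 to 0.310.

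Adenosine deaminase, which turns adenosine into inosine, had the largest estimated decrease. The relative signal of Ada was 0.248, 0.165, 0.683 and 0.398 in control and 0.0468, 0.195, 0.0601 and 0.165 with allopurinol. Control replicates 3 and 4, on slide 2, were the highest arrays, and allopurinol replicate 2 lay above control replicate 2. The log2 fold change was -1.74 ± 0.61 (interval -3.14 to -0.33, limma adjusted p = 0.0752), -1.08 on slide 1 and -2.39 on slide 2. Quantile normalization gave -1.91 and moved it past the threshold (limma adjusted p = 0.0397). With normexp, a background correction run here with an offset of 50, the value was -0.73 after quantile normalization. With normexp scaled to the 75th percentile it was -0.27, where the median over all genes was 0.36. The processed signals of Ada ran from 21.7 to 185 units, and the part of the offset was not tested. On unscaled signals the log2 fold change of Ada was -1.10.

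Guanine deaminase, which makes xanthine from guanine, showed nearly the same mean in both groups. The relative signal of Gda was 2.05, 0.891, 1.96 and 1.45 in control and 0.818, 1.65, 1.84 and 2.10 with allopurinol, and both groups had 1 low array on slide 1. Its log2 fold change was 0.0007 ± 0.39 (interval -0.90 to 0.90, limma adjusted p = 0.999). That interval still holds a change of up to 1.86-fold, and the sign turned on slide 1 (-0.22), under normexp scaled to the percentile (-0.014) and with several single arrays left out.

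Among the salvage enzymes, Hprt1 and Aprt had estimates above 0 and Adk below 0. Hprt1 joins hypoxanthine or guanine to phosphoribosyl pyrophosphate. Its relative signal was 6.49, 5.43, 8.88 and 8.69 in control and 8.61, 9.71, 11.8 and 12.6 with allopurinol. On each slide the allopurinol arrays lay above the controls, and the groups overlapped only across slides. Its estimate was a log2 fold change of 0.55 ± 0.24 (interval -0.01 to 1.10, limma adjusted p = 0.142), or 0.62 on slide 1 and 0.47 on slide 2. Under other settings the value was 0.65 with normexp and quantile normalization (limma adjusted p = 0.0173). Without scaling it was 1.18 (limma adjusted p = 0.0137), a setting that lifts the median of all genes to 0.61. With normexp scaled to the percentile it was 0.31 (limma adjusted p = 0.658), where that median was 0.36.

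Aprt does the same for adenine. Its relative signal was 3.56, 2.24, 2.60 and 4.73 in control and 3.90, 3.81, 6.07 and 5.75 with allopurinol, so control replicate 4 lay among the treated arrays. The log2 fold change of 0.60 ± 0.30 (interval -0.10 to 1.30, limma adjusted p = 0.189) was 0.45 on slide 1 and 0.75 on slide 2. Without scaling it was 1.24 and passed the threshold (limma adjusted p = 0.0333), where the median over all genes was 0.61. With normexp scaled to the percentile it was 0.38 (limma adjusted p = 0.657), where that median was 0.36.

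Adenosine kinase, which returns adenosine to AMP, was estimated lower. The relative signal of Adk was 2.97, 1.88, 1.49 and 2.07 in control and 1.92, 0.853, 0.797 and 1.26 with allopurinol. Of the 4 allopurinol arrays, 3 lay below every control array, and replicate 1 lay within the control range. On the log2 scale the difference was -0.85 ± 0.35 (interval -1.65 to -0.04, limma adjusted p = 0.118), close on slide 1 (-0.89) and slide 2 (-0.81). Without allopurinol replicate 1 the value was -1.10, with an adjusted p = 0.0499, and without scaling it was -0.21. Allopurinol replicate 1 was thus the highest of its group for Nt5e, Adk and Xdh alike.

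The upstream regions of Hprt1 and Aprt are shown as those of the pair of phosphoribosyltransferases whose estimates were above 0, with the same motifs in capitals. They lie at chrX:137655494-137655793 (plus strand) and chr19:67536978-67537277 (minus strand) of GRCr8.
Hprt1: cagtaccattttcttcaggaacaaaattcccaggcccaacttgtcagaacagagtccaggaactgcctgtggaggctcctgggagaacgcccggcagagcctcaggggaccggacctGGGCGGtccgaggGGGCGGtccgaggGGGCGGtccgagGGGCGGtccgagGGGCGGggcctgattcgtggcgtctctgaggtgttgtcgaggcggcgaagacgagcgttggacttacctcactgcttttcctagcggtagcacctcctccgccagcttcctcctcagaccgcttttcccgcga
Aprt: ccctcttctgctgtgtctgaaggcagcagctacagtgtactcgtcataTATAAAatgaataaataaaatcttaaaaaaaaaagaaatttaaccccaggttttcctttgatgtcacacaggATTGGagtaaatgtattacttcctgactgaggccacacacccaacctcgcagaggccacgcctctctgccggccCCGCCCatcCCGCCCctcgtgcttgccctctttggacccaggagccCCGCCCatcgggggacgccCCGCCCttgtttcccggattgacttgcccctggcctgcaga

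Hprt1 has 5 GC boxes, all in the same orientation and from -133 to -83, without a TATA or CCAAT match. Aprt has 4 GC boxes on the opposite strand, from -56 to 10, a TATAAA match at -202 and a CCAAT match at -130. Of the 10 members, all found in the table, 7 hold a GC box, 2 a TATAAA match and 5 a CCAAT match, where 33.1%, 14.2% and 37.5% of the 33469 windows do. The remaining GC boxes belong to Nt5e and Ada with 3 each, Adk with 4, and Gda and Aox1 with 1 each. The motif is held by members with estimates on either side of 0, and the CpG count was above the median of all windows in 9 of 10 members.

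The wider purine pathway was described with 7 lists of 79 further genes, of which 68 had a probe and 58 were tested. Of these 58, 10 were called higher and 15 lower, 17.2% and 25.9% beside 11.9% and 11.5% of all genes tested. Their median log2 fold change was -0.37. The lists also hold genes not specific to purines, such as Suox, Dpp4 and Enpp2, each called lower. The shares called thus do not describe purine genes alone. The balance turned without scaling between arrays, where 14 were called higher and 9 lower. The count of higher genes was 3 with normexp and the 75th percentile, which called 7 lower. It was 5 without control replicate 3 or allopurinol replicate 4 and 6 without allopurinol replicate 1, 2 or 3, and 4 with the replicate number as a block. The lists are plotted by role beside the 8 enzymes.

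**Figure D3:**
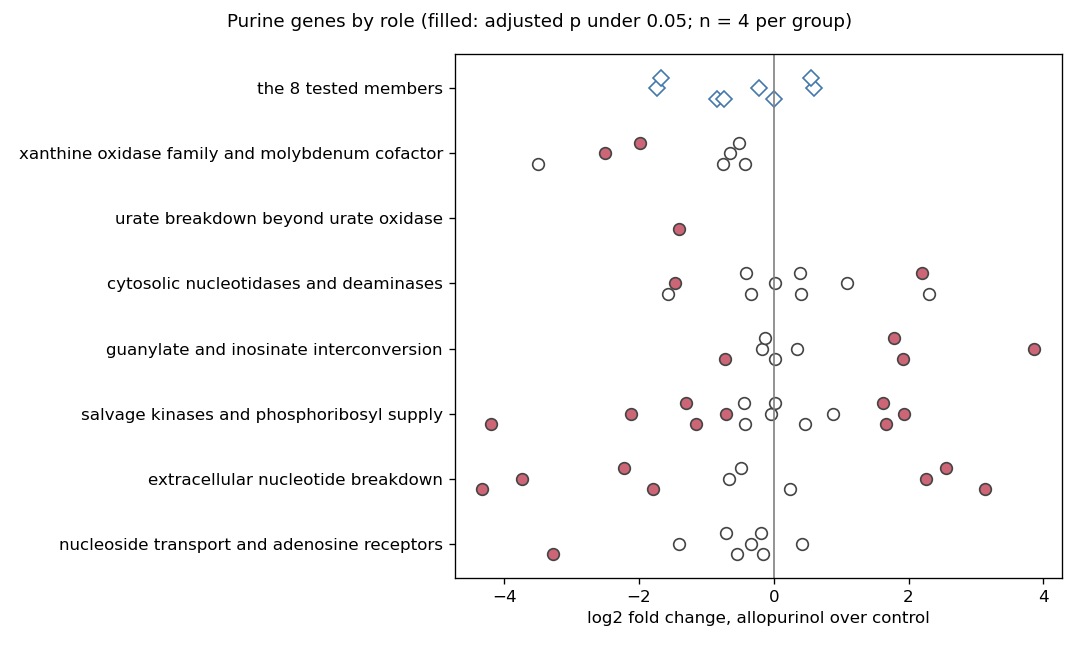
Log2 fold changes of allopurinol over control are shown for 58 further genes in 7 lists by role (circles) and the 8 tested enzymes (diamonds). Circles are filled where the limma adjusted p was under 0.05, with n = 4 per group. Filled points stand on both sides of 0, and none of the diamonds passed the threshold.

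Of 7 tested relatives of xanthine oxidase and genes of its molybdenum cofactor, 0 were called higher and 2 lower, with a median of -0.75. Among all genes tested, 23.5% were called in either direction, so this count does not set the list apart. Mocs2, which encodes the subunits of molybdopterin synthase, had relative signals of 0.546 to 0.913 in control and 0.0829 to 0.182 with allopurinol, which did not overlap. Its log2 fold change was -2.50 ± 0.30 (limma adjusted p = 0.000843), called in 21 of 23 other settings, and it was -0.81 with normexp and the 75th percentile. Suox, the molybdenum enzyme sulfite oxidase, fell (2.88 to 5.19 in control, 0.747 to 1.74 with allopurinol; log2 fold change -1.99 ± 0.32, adjusted p = 0.00396), called in 22 of 23 settings. Aox2, a further aldehyde oxidase, ran from 0.430 to 3.89 in control and from 0.0144 to 0.418 with allopurinol without overlap, yet its value of -3.50 ± 1.14 missed the threshold (adjusted p = 0.0590) and passed it in 3 of 23 other settings. Aox3 was well above background on 0 arrays and Aox4 on 1 control array, and neither was tested. In urate breakdown beyond urate oxidase, Urah, the next enzyme of that route, was lower (-1.41 ± 0.24, adjusted p = 0.00479, called in 20 of 23 settings). Allc was well above background on no array.

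Cytosolic nucleotidases and deaminases had 1 higher and 1 lower of 10, with a median of 0.20. Over all genes tested, 23.5% were called in either direction, so this count does not set the list apart. Ampd3, an AMP deaminase, rose (0.0304 to 0.113 in control, 0.155 to 0.409 with allopurinol; 2.20 ± 0.50, limma adjusted p = 0.0171, called in 19 of 23 settings), and it was 1.13 and not called under normexp scaled to the percentile. Nt5c3a, a nucleotidase, fell by 1.46 on the log2 scale (standard error 0.27, adjusted p = 0.00737, called in 19 of 23). Enzymes that interconvert guanylate and inosinate included 3 higher and 1 lower of 8, with a median of 0.19. Impdh1 and Impdh2, both isoforms of the enzyme that commits IMP to guanine nucleotides, were higher. Impdh2 had relative signals of 0.282 to 1.15 in control and 1.49 to 2.87 with allopurinol (1.92 ± 0.45, adjusted p = 0.0188, called in 18 of 23 settings). Impdh1 was less stable, with 1 control array at 0.738 among the treated values and a call in 10 of 22 settings (3.87 ± 1.16, adjusted p = 0.0455; 1.74 with normexp and quantile normalization). The other higher gene was Gmpr (1.79, called in 15 of 23, and 0.60 with normexp and quantile normalization) and the lower one Gmpr2 (-0.72, called in 10 of 23).

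In the list of salvage kinases and phosphoribosyl supply, 3 were higher and 5 lower of 14, with a median of -0.23. The largest decrease was that of Ak4, a mitochondrial adenylate kinase, with 41.8 to 54.0 in control and 2.35 to 2.87 with allopurinol (-4.20 ± 0.18, limma adjusted p = 1.21e-05), called in all 23 other settings. Ahcy, which releases adenosine from S-adenosylhomocysteine, fell (14.4 to 22.2 in control, 2.85 to 5.62 with allopurinol; -2.11 ± 0.26, adjusted p = 0.00106, called in 22 of 23). Prps2, a synthetase of phosphoribosyl pyrophosphate, was higher (1.93 ± 0.58, adjusted p = 0.0476, called in 11 of 23), as was Prpsap2, a protein associated with it (1.66 ± 0.33, adjusted p = 0.00944, called in 20 of 23). The third higher gene was the adenylate kinase Ak1 (1.63, called in 20 of 23). Ak3, a mitochondrial GTP:AMP phosphotransferase, was lower (-1.15, called in 7 of 23). Prps1, the other synthetase, was among the lower genes on the probe used (-0.71, called in 6 of 23), and another probe of it gave 0.32.

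The list named for extracellular nucleotide breakdown, the route in which Nt5e stands, also holds a peptidase, Dpp4. Whether the other listed enzymes, Entpd5 among them, act outside the cell was not tested. In that list 3 were higher and 4 lower of 10, with a median of -0.58. Alpl, tissue-nonspecific alkaline phosphatase, which can also release adenosine from AMP, fell (7.17 to 11.3 in control, 0.337 to 0.858 with allopurinol; -4.32 ± 0.35, limma adjusted p = 0.000147). Entpd5, a nucleoside diphosphatase, fell likewise (4.57 to 6.23 and 0.346 to 0.721; -3.73 ± 0.28, adjusted p = 0.000106), and both were called in all 23 other settings. Entpd2, an ecto-ATPase, rose (0.327 to 0.987 in control, 2.80 to 5.17 with allopurinol; 2.56 ± 0.41, adjusted p = 0.00346, called in 21 of 23), and its other probes gave 1.34 and 2.93. Cd38, a surface NAD glycohydrolase, is among the higher calls (adjusted p = 0.0417, called in 8 of 22 settings), but it passed the detection filter only through the 4 allopurinol arrays, with 1 control array well above background. Its value of 3.13 became 2.52 when signals were floored at 0.02, and 0.64 under quantile normalization after normexp, and neither was called. Entpd6 was also higher (2.26, called in 13 of 23), and Dpp4, a peptidase, and Enpp2, autotaxin, were lower (-1.79, called in 21 of 23, and -2.23, called in 8 of 23). Enpp2 was -0.21 under normexp scaled to the percentile. Of 8 nucleoside transporters and adenosine receptors, 0 were higher and 1 lower, with a median of -0.44. With 23.5% of all genes called, this count does not set the list apart. The lower one was Slc28a1, a concentrative nucleoside transporter, which had 0.226 to 0.555 in control and 0.0130 to 0.166 with allopurinol (-3.27 ± 0.78, adjusted p = 0.0209, called in 17 of 23). It was -0.52 and not called with normexp and the 75th percentile, and -1.06 and called with normexp and quantile normalization.

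Markers of kidney cell types moved between the groups, and their part in the purine values was not tested. Of 10 proximal tubule markers 8 were lower and 1, Slc5a2, higher. Of 6 endothelial markers 5 were lower (Pecam1, Kdr, Tek, Emcn and Tie1) and 0 higher, with a summed relative signal of 3.56 to 6.96 in control and 0.386 to 0.624 with allopurinol. Tek and Emcn were well above background on 4 control arrays and 1 allopurinol array and passed the filter only through control, whereas Pecam1 and Kdr were well above background on all 8 arrays and Tie1 on 4 and 3. Macrophage markers had 3 higher (Cd14, Cd68 and C1qb) of 6 tested and sums of 2.46 to 9.43 against 10.2 to 17.8. C1qa, Csf1r and Adgre1 were not called, with log2 fold changes of 1.63, -0.24 and -0.34. Fibroblast and pericyte markers had 2 higher (Col1a1 and Col3a1) and 1 lower (Pdgfra) of 5, with Dcn and Pdgfrb not called. Their sums were 13.5 to 16.6 against 29.2 to 88.5. Col1a1 and Col3a1 made up most of the allopurinol sums, at 10.8 to 27.4 and 16.5 to 57.5. These sums thus do not describe the list as a whole. Thick limb and distal tubule markers had 1 lower, Umod, of 5 and sums of 41.7 to 57.7 against 2.76 to 19.9. Umod alone made up most of the control sums, at 31.1 to 48.3, so the sums do not describe the list as a whole. Slc12a1, Slc12a3, Kcnj1 and Calb1 were not called, and their values overlapped between the groups. Their log2 fold changes were -0.68, -0.25, -1.02 and -1.62. The collecting duct list had 1 higher, Aqp2, of 6, with overlapping sums (2.65 to 9.90 and 4.58 to 21.5). Podocyte markers had 1 higher, Synpo, and 1 lower, Podxl, of 5. Podocyte sums were 1.91 to 3.14 against 0.790 to 1.76, and Podxl alone held 1.30 to 2.69 of the control sums. For T cells 0 of 3 tested markers of a list of 7 were called (sums of 0.303 to 1.02 and 0.474 to 1.03), with Cd2 and Cd5 well above background on no array, and for B cells 0 of 2 (0.0618 to 0.209 and 0.0518 to 0.0739). Hepatocyte markers had 1 higher, Tdo2, and 1 lower, Apoh, of 3 tested from a list of 7 (0.344 to 0.785 and 0.0743 to 0.237). Both of these passed the detection filter only through the group where they were high, so their calls are not counted as support for a direction. Apoh alone made up most of the control sums, at 0.314 to 0.737, so the sums are not counted either.

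The genes whose levels followed those of Xdh most closely over the 8 arrays were Txndc15 (Pearson r of 0.926), Nsl1 (0.924), Thbd (0.922), Mief1 (0.914) and Prpsap1 (0.911). They were chosen as the highest of all named genes outside the 10, so the values describe likeness only, and the arrays share slide and treatment. None of the 5 differed between the groups at the threshold, with log2 fold changes from -0.30 to 0.07. Xdh itself differed by only -0.21, so genes chosen for likeness to it had little room to differ. No conclusion is drawn from this.

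The plot of other settings shows how far processing moved the enzymes. Of 183 refits of single enzymes under 23 settings, 6 passed the threshold: Hprt1 under 2 settings, and Aprt, Ada, Nt5e and Adk under 1 each. Xdh, Aox1 and Gda passed under none. The settings overlap, so their number is no measure of support. The slide block, the replicate block and no detection filter, for example, each left the estimate of Ada at -1.74.

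**Figure D4:**
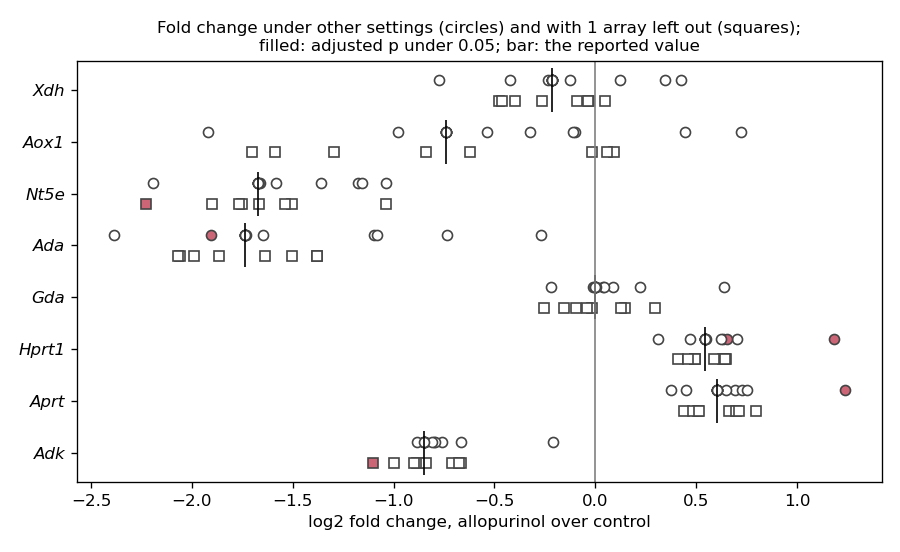
Log2 fold changes of the 8 enzymes (allopurinol over control) under other processing settings or on 1 slide (circles) and with 1 array left out (squares); filled symbols have an adjusted p under 0.05 and bars are the reported values. Estimates of Nt5e, Ada and Adk stay below 0 and those of Hprt1 and Aprt above 0 in every setting run. Those of Xdh, Aox1 and Gda fall on both sides. Some settings shift all genes away from 0. With normexp and the 75th percentile Hprt1 was 0.31 and Aprt 0.38, beside a median over all genes of 0.36.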

How the data were processed

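Single-colour Agilent arrays of 8 rat kidney RNA samples, 4 per group, were analysed. Per the file headers, spots were read with Agilent Feature Extraction 10.5.1.1 (protocol GE1_105_Dec08, design 028282), which gave the deposited linear intensity values: the processed signal, with background removed, and the median spot and local background intensity. Flags for detection and non-uniform spots, another deposited kind of value, were used as given. The authors' deposited table holds log2 values that correlate at 0.9992 to 0.9997 per array with log2 of the processed signal, scaled to the 75th percentile and centred on each probe's median over the arrays. Its column medians were 0.0338, 0.0662, 0.0771 and 0.00597 for control and -0.0724, 0.0186, -0.136 and -0.0445 for allopurinol, so its scale, centring and direction follow from this match. It served as an alternative.

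Control spots were left out, non-uniform spots were set to missing, and the processed signal was divided by each array's 75th percentile, floored at 0.005 and log2-transformed. Probes well above background on at least 4 of 8 arrays were kept (24343 of 30367; none was saturated). Symbols came from a RefSeq table of the assembly GRCr8 by unversioned accession (18643 probes named), while the array header names the build rn4, so the only coordinates given are those of the printed promoter windows, on GRCr8. The brightest kept probe stood for a gene. Settings named normexp corrected the median spot signal for local background by that method, with an offset of 50 added. The comparison of the groups used limma (version 3.58.1, under R 4.3.3), with Benjamini-Hochberg adjustment over all 21420 genes and transcripts, and the steps were tested on simulated data. Errors after ± are moderated standard errors. The members and lists were chosen with earlier results of these data known. Named were all 10 members, of each wider list the called genes with the 2 largest changes in either direction, the genes of counts of 5 or fewer, and the 5 genes most like Xdh. Aox2, Aox3, Aox4, Allc, Prps1 and single markers were named after their values were seen. Of the genes called in the wider lists, 1 is not reported here. The replicate numbers did not pair the samples, as deviations of same-numbered samples correlated at -0.016 to 0.048.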

Additional observations from a re-analysis of the deposited data

How the results depend on the processing

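With 0 enzymes called higher and 0 lower as reported, 2 were called higher without scaling between arrays, 1 higher with normexp and quantile normalization and 1 lower with quantile normalization. Leaving out 1 array gave 0 to 2 lower. The sign turned for Xdh without scaling (0.42), with normexp and the 75th percentile (0.12) and on slide 2 alone (0.35), for Aox1 with normexp and the 75th percentile (0.72) and on slide 2 (0.44), and for Gda with normexp and the 75th percentile (-0.014) and on slide 1 (-0.22). With 1 array left out Xdh ran from -0.48 to 0.049, Aox1 from -1.70 to 0.094 and Gda from -0.25 to 0.30. The median over all genes was 0.61 without scaling and 0.36 with normexp and the 75th percentile, against -0.03 as reported. The causes were not tested.

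Over all genes, 5029 were called as reported, and fewer were called with normexp and the 75th percentile (2013), on slide 1 (1022) or slide 2 (654) alone, where only 4 arrays entered the fit, and with the replicate block (3260), which called 0 enzymes in either direction. Without scaling 83.8% of called genes were higher, against 50.8% with it. Of the genes in the wider lists, 10 were higher and 15 lower as reported. Normexp and the 75th percentile called 3 and 7, slide 1 called 0 and 6, and slide 2 called 0 and 3. No scaling called 14 higher and 9 lower, which turns the balance. No detection filter called 6 higher and the replicate block 4 higher, and leaving out 1 array gave 5 to 8 higher. These settings for the wider genes were added after the data were seen.

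The signal of Aox1 lay below the detection call on 3 arrays and that of Uox on all 8, so the data cannot show a difference for Uox. No value of a tested enzyme stood apart from its group by Dixon's criterion in the 16 groups of 4 checked.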
